A study of Mus musculus with 24 samples.

Results

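The 10 genes of the p53 pathway followed here across the whole series are Trp53 itself and 9 of its best known targets in the DNA damage response (Cdkn1a, Mdm2, Ccng1, Phlda3, Bax, Bbc3, Trp53inp1, Sesn2 and Aen). They were taken by gene symbol, with earlier results of these data known. All 10 were found among the 23420 genes of the count files. RNA-seq had been carried out on 24 libraries in 10 groups of C57BL/6 mouse cells. The questions the design puts to these genes are whether loss of TDG, the DNA glycosylase that excises formylcytosine and carboxylcytosine from DNA, or loss of the TET enzymes, the dioxygenases that make these bases from methylcytosine, changes the read-out of the DNA damage response.

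The T cell groups were Th2 cells from wild type (WT) mice and from Tdg-iKO mice (TDG iKO), with 4 libraries each, prepared from sorted naive CD4+ T cells of spleen and lymph nodes, activated with antibodies against CD3 and CD28 in the presence of IL-4 and anti-IFN-γ, grown on in IL-2 for a single cycle and given no further agent. The macrophage groups were bone marrow-derived macrophages (BMDM) grown with L929-conditioned medium and M-CSF, in a Tdg cohort (WT and TDG iKO) and a Tet cohort (WT and TET-iTKO, hereafter TET iTKO). Each cohort was sampled unstimulated (0 h) and after 6 h with Kdo2-lipid A (KLA, a TLR4 agonist), with 2 libraries per genotype and time. In both knockouts the floxed alleles (Tdg fl/fl, or fl/fl alleles of Tet1, Tet2 and Tet3 together) were deleted by treating the mice with tamoxifen, which the control mice received as well. The knockout cells additionally carried a Rosa26 reporter of Cre activity, on which the Th2 precursors were sorted. No group was treated with a DNA-damaging agent.

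p53 is a transcription factor that is kept scarce in healthy cells by MDM2, a ubiquitin ligase that marks it for degradation. When DNA is damaged, kinases such as ATM and ATR release p53 from MDM2, and p53 then raises the transcription of genes that stop the cell cycle, repair DNA, alter metabolism or start apoptosis, and of Mdm2 itself, which closes a negative feedback loop. The activity of p53 is therefore set mostly at the protein level, and the mRNA levels of its targets are the usual transcriptional read-out. In T cells p53 restrains the expansion that follows activation, and in macrophages p21, the product of Cdkn1a, accompanies the exit from the cell cycle.

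Genes that p53 activates usually carry a response element made of a pair of p53 half-sites close to the start of transcription. Pairs with an intact core in both half-sites and a spacer of at most 10 bases were searched on the mm9 genome in windows of 3 kb on either side of each gene's start (GENCODE vM1). The p53 half-site consensus is its own reverse complement, so a single search covered both strands. With at most 1 mismatch to the consensus, 4 of the 10 genes held such a pair, against 9.85% of all 22367 windows. These 4 pairs are printed because they lie beside genes described in detail, with the half-sites in capitals and the spacer in lower case, read on the strand of the gene.
Cdkn1a: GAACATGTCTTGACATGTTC
Trp53inp1: AAACATGTCCaGGACTAGCCT
Ccng1: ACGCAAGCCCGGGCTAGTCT
Bax: AAACATGCTTttgctcAGTCAAGCCC

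Distances are from the outermost annotated start of each gene, and other starts within a gene were not considered. The Cdkn1a pair began 51 bases before this outermost start (chr17:29227873-29227892, plus strand, 1 mismatch). The pair beside Trp53inp1, at chr4:11082259-11082279 on the plus strand, lay 1319 bases before the start and had 0 mismatches, which was found in 1.45% of windows. Those of Ccng1 (chr11:40568438-40568457, minus strand) and Bax (chr7:52720907-52720932, minus strand) lay in introns, 356 and 1336 bases after the start, with 1 mismatch each. Allowing 2 mismatches added Bbc3 alone among the 10 genes, while 38.4% of all windows then held a pair. These matches describe the letters of the windows, and no binding was measured.

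Assigned reads ranged from 4982950 to 26657729 per library (median 14853861), and every one of the 10 genes had at least 10 reads in all 24 libraries, the lowest count being 20 for Bbc3. Values are given as normalised read counts, meaning raw counts divided by the library's size factor, on a separate scale for the Th2 libraries, the Tdg cohort and the Tet cohort. Th2 replicates 3 and 4 of each genotype differed by little more than counting noise, with a mean chi-square per gene of 1.34 (TDG iKO) and 1.51 (WT) against 21.3 to 218 for the other Th2 pairs, so their counts were summed and counted as 1 sample, leaving n = 3 per genotype. BMDM pairs differed by 37.4 to 80.6 in the Tdg cohort, widest between the unstimulated WT libraries, and by 10.9 to 25.2 in the Tet cohort. The unstimulated WT replicate 2 of the Tdg cohort had the fewest assigned reads. Marker genes matched the labelled cell types, since the summed normalised count of 4 macrophage markers was 79727 to 146670 in BMDM and 116.7 to 643.9 in Th2 cells, where Csf1r was at 0, and that of Gata3, Il4 and Il13 was 4741 to 6495 in Th2 cells and at most 1.625 in BMDM. From qRT-PCR in Th2 cells after a single cycle, the paper reports that the floxed exons of Tdg, Tet1, Tet2 and Tet3 were largely deleted. The deletions themselves could not be checked with these gene-level counts. Tdg had 0 to 7 raw reads in every library, WT included, and Tet2 and Tet3 were not lower in TET iTKO than in WT BMDM (log2 differences of 0.37 and 0.12 at 0 h). Of the 10 genes, Trp53 shares 33.3% of its transcript with a 95.5% identical copy on chromosome 17 annotated as Trp53-ps, Aen 20.4% with a 99.6% identical copy on chromosome 4, and Ccng1 has short copies over 9.77%, so the reads of these 3 could be split or lost in counting.

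In Th2 cells, none of the differences in mRNA level of Trp53 and its targets between TDG iKO and WT passed the test. Trp53 (chr11:69393861-69405375) had normalised counts of 2104, 2325 and 2214 in the 3 TDG iKO samples and 2183, 2326 and 2251 in the 3 WT samples. The 6 values interleaved and the difference was -0.03 on the log2 scale (SE 0.13, 95% interval -0.28 to 0.23). By DESeq2 0 of the 10 genes were called at an adjusted p under 0.05, and the background, meaning the share of all 15826 genes tested that was called, was also 0% (77 genes had an unadjusted p under 0.05, and edgeR called 0). In bulk samples such as these, fewer cells of a type and less RNA per cell cannot be told apart, and since the labels do not say which libraries came from separate animals or cultures, p-values measure only the spread between these samples.

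Cdkn1a, which encodes p21, the inhibitor of cyclin-dependent kinases that arrests cells after DNA damage, had 5575, 5795 and 3168 normalised counts in TDG iKO and 4480, 5224 and 2559 in WT Th2 cells. The groups overlapped, because the summed replicates 3 and 4 were low in both genotypes, although the TDG iKO sample was the higher in each of the 3 same-numbered pairs. The difference was 0.25 (SE 0.37, 95% interval -0.47 to 0.96), with a DESeq2 adjusted p of 1. Among all settings tried, one called Cdkn1a in Th2 cells, at 0.27 with a DESeq2 adjusted p of 0.0199, in a fit that counted replicates 3 and 4 separately and paired the samples by number. With the summed samples the paired fit gave a DESeq2 adjusted p of 0.671, and with replicates 1 and 2 alone the difference was 0.22 with an adjusted p of 0.766.

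Mdm2, the feedback inhibitor of p53, had 2729, 3075 and 2248 normalised counts in TDG iKO against 2646, 2626 and 2363 in WT Th2 cells. Ccng1, a cyclin G gene that p53 induces and whose product acts back on p53 and MDM2 through protein phosphatase 2A, had 5919, 6041 and 4248 against 4743, 5350 and 4110. Phlda3, whose product restrains AKT at the membrane, had 546.3, 653.0 and 358.4 against 484.7, 502.8 and 322.7. For none of the 3 did the genotypes separate, and their log2 differences were 0.08, 0.19 and 0.25.

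Of the apoptosis genes, Bax, the pore-forming member of the BCL-2 family, had 5806, 5925 and 2979 normalised counts in TDG iKO against 5487, 5453 and 2616 in WT Th2 cells. Bbc3, which encodes the BH3-only protein PUMA, had 212.3, 221.4 and 358.9 against 235.6, 176.6 and 445.6. Trp53inp1, a stress-induced gene whose product favours p53 phosphorylation and autophagy, had 2245, 1963 and 3739 against 1964, 1847 and 4694. In all 3 genes the spread within a genotype, which ran mostly between replicates 1 and 2 and the 3+4 sample, exceeded the difference between genotypes, which was 0.12, -0.12 and -0.10 on the log2 scale.

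Sesn2, whose product sestrin 2 curbs mTORC1 signalling and oxidative stress, had 323.3, 383.2 and 399.4 normalised counts in TDG iKO against 461.1, 331.6 and 404.8 in WT Th2 cells. Aen, an exonuclease that acts in apoptosis, had 603.6, 766.5 and 578.1 against 580.6, 728.0 and 491.0. Both pairs of groups overlapped, and the differences were -0.11 and 0.12. Within the 3 same-numbered pairs, Cdkn1a, Ccng1, Phlda3, Bax and Aen were higher in TDG iKO each time and Trp53 was lower each time, where 14.3% of all genes were higher and 12.6% lower in all 3 pairs. With the replicate number as a block 0 of the 10 genes were called, of 15 called among all genes. Groups did not overlap for 0 of the 10 genes, where 3.47% of all genes had non-overlapping groups. The median log2 difference of the 10 genes was 0.10, against -0.01 over all genes. The 95% intervals of all 10 genes stayed within a 2-fold change, the narrowest reaching 1.21-fold (Trp53) and the widest 1.96-fold (Trp53inp1). Of the other p53 targets listed, 0 of 23 were called in Th2 cells, as were 0 of 14 p53 regulators and 0 of 14 proliferation genes.

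**Figure D1:**
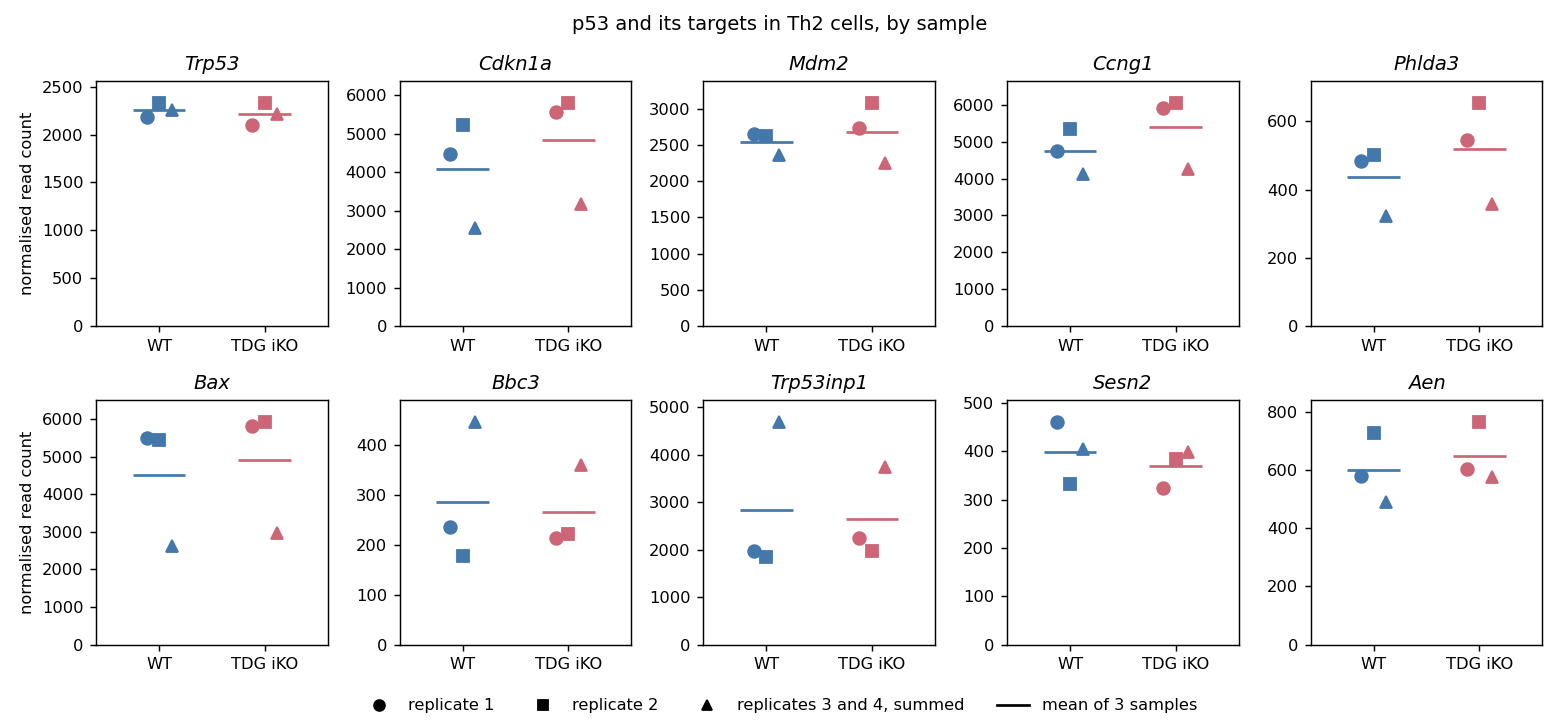
Normalised read counts (vertical axes, each from 0) of the 10 genes in the 3 WT and 3 TDG iKO Th2 samples, with a panel for each gene, a point for each sample and a bar at the group mean; marker shapes stand for replicates 1, 2 and the summed 3+4. Genotypes overlap in each panel, while the 3+4 samples lie apart from replicates 1 and 2 for 8 of the 10 genes, such as Bax and Trp53inp1.

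The larger difference within the Th2 samples ran between replicates and not between genotypes. Replicates 1 and 2, which carry library numbers 1 to 4 in the labels, did not overlap the summed replicates 3 and 4, numbered 17 to 20, for 8 of the 10 genes, and the same held for 55.7% of all genes. Bax was 2.03-fold, Cdkn1a 1.84-fold and Phlda3 1.61-fold higher in replicates 1 and 2, and Ccng1, Aen and Mdm2 were 1.32-, 1.25- and 1.2-fold higher. Trp53inp1 and Bbc3 went the other way and were 2.1- and 1.9-fold higher in the 3+4 samples. Trp53 (ratio 0.999) and Sesn2 (ratio 1.07) were close to the same in both. Each set of replicates held both genotypes, and no test was made of this split.

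In unstimulated BMDM, loss of TDG changed none of the 10 genes by the test, and Sesn2 showed the widest difference. Sesn2 (chr4:132047947-132066416) had 177.0 and 316.1 normalised counts in TDG iKO against 104.4 and 124.3 in WT BMDM at 0 h, so that both knockout libraries lay above both WT libraries. The difference of 1.12 (2.17-fold, SE 0.43, 95% interval 0.28 to 1.96) reached 0.00897 as an unadjusted p, and its adjusted p by DESeq2 was 1. It was not seen after 6 h of KLA, where the values were 137.3 and 179.3 in TDG iKO and 140.0 and 190.0 in WT (-0.06), and the change in the genotype difference with KLA was -1.18 with a DESeq2 adjusted p of 1. In this interaction 0 of the 10 genes were called and the background over 15026 genes was 0% (37 genes at an unadjusted p under 0.05, 0 by edgeR).

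Across the 10 genes, 0 were called at 0 h and 0 at 6 h, where the background was 0% at both times (265 and 34 genes had an unadjusted p under 0.05, and edgeR called 0). The Trp53 values at 0 h were 605.4 and 590.8 in TDG iKO against 554.3 and 467.1 in WT, and Phlda3 had 106.4 and 73.11 against 119.6 and 110.5. With Sesn2 these were the 3 genes whose groups did not overlap at 0 h, where 20.6% of all genes did not overlap. At 6 h it was Bbc3 alone, with 61.96 and 68.01 normalised counts in TDG iKO against 96.13 and 84.7 in WT (-0.47, 95% interval -1.35 to 0.41), where the share of all genes was 16%.

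Cdkn1a had 3558 and 2497 normalised counts in TDG iKO and 3282 and 3141 in WT BMDM at 0 h, and 6497 and 5048 against 5691 and 5893 at 6 h. The WT values lay between the knockout values at both times, and the differences were -0.09 (95% interval -0.66 to 0.49) and -0.01 (-0.58 to 0.57). Mdm2 had 3356 and 3891 against 3392 and 2973 at 0 h, a difference of 0.19 (-0.29 to 0.67). Bax had 1681 and 1015 in TDG iKO against 1581 and 2494 in WT at 0 h, its highest value coming from the WT library with the fewest reads, and the difference was -0.59 (-1.36 to 0.17). These intervals are wide, staying within 2-fold for 4 of the 10 genes at 0 h and for 7 at 6 h, the widest reaching 3.89-fold for Sesn2 at 0 h. Without the unstimulated WT replicate 1, which leaves the library with the fewest reads as the lone 0 h WT sample, 1177 genes were called at 0 h and 0 of them were among the 10. Of the other targets 0 of 23 were called at either time, and of the regulators 0 of 14.

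Loss of the TET enzymes left 9 of the 10 genes below the threshold in unstimulated BMDM and again after KLA, with one gene called at each time. At 0 h this was Sesn2, which had 446.3 and 481.8 normalised counts in TET iTKO against 341.4 and 286.5 in WT. Both knockout libraries were above both WT libraries, and the difference was 0.57 (1.48-fold, SE 0.19, 95% interval 0.19 to 0.95) with a DESeq2 adjusted p of 0.0478. The call sat at the threshold, being lost with TMM scaling (DESeq2 adjusted p of 0.052) and when any single library was left out, and kept by edgeR (adjusted p of 0.00461). The background at 0 h was 7.50% of 12200 genes, and 1 gene in 10 is near it. After KLA the Sesn2 values were 345.6 and 369.0 in TET iTKO against 301.1 and 239.5 in WT (0.40, DESeq2 adjusted p of 0.285).

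At 6 h the gene called was Cdkn1a (chr17:29227924-29237667), and it was lower in TET iTKO. It had 5181 and 5934 normalised counts in TET iTKO against 7706 and 7182 in WT, and the groups did not overlap. The difference was -0.42 (SE 0.13, 95% interval -0.67 to -0.18), a 1.34-fold lower level, with a DESeq2 adjusted p of 0.0175 and an edgeR adjusted p of 0.00269. Left without WT replicate 1 it was -0.37 (DESeq2 adjusted p of 0.209) and without TET iTKO replicate 1 it was -0.33 (0.272), so the direction held and the call did not. The background at 6 h was 6.58% of 11634 genes. At 0 h Cdkn1a had 4613 and 5087 in TET iTKO against 5651 and 4558 in WT and did not separate the genotypes (-0.07, 95% interval -0.32 to 0.17).

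Trp53inp1 had 479.3 and 349.8 normalised counts in TET iTKO against 274.3 and 314.5 in WT at 6 h. The groups were separate by a small margin, and the difference of 0.49 (95% interval 0.10 to 0.88) had a DESeq2 adjusted p of 0.136 and passed by edgeR (adjusted p of 0.0148). Trp53 had 851.6 and 912.8 against 734.2 and 752.7 at 6 h, and 705.8 and 844.1 against 682.8 and 664.6 at 0 h. Its groups did not overlap at either time, while its differences, 0.25 at 6 h and 0.20 at 0 h, had DESeq2 adjusted p of 0.429 and 0.578.

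None of the remaining members passed the test. Mdm2 had 7543 and 7351 normalised counts in TET iTKO against 6295 and 6719 in WT at 6 h (0.19, DESeq2 adjusted p of 0.288). Bax had 2150 and 2544 against 2972 and 2683 at 6 h (-0.27, adjusted p of 0.21), and 1968 and 1991 against 2217 and 2234 at 0 h (-0.17, adjusted p of 0.577). The inhibitor of p53 and the effector of apoptosis thus differed in opposite directions at 6 h, and neither passed the test. Ccng1, Phlda3, Bbc3 and Aen ranged from -0.40 (Phlda3) to 0.26 (Bbc3) at 0 h and from -0.15 to 0.12 at 6 h, with overlapping groups. In all, groups did not overlap for 3 of the 10 genes at 0 h, against 53.5% of all genes, and for 6 of the 10 at 6 h, against 47.4%. The medians of the 10 genes were -0.02 and 0.01 on the log2 scale, against 0.01 and -0.00 over all genes.

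**Figure D2:**
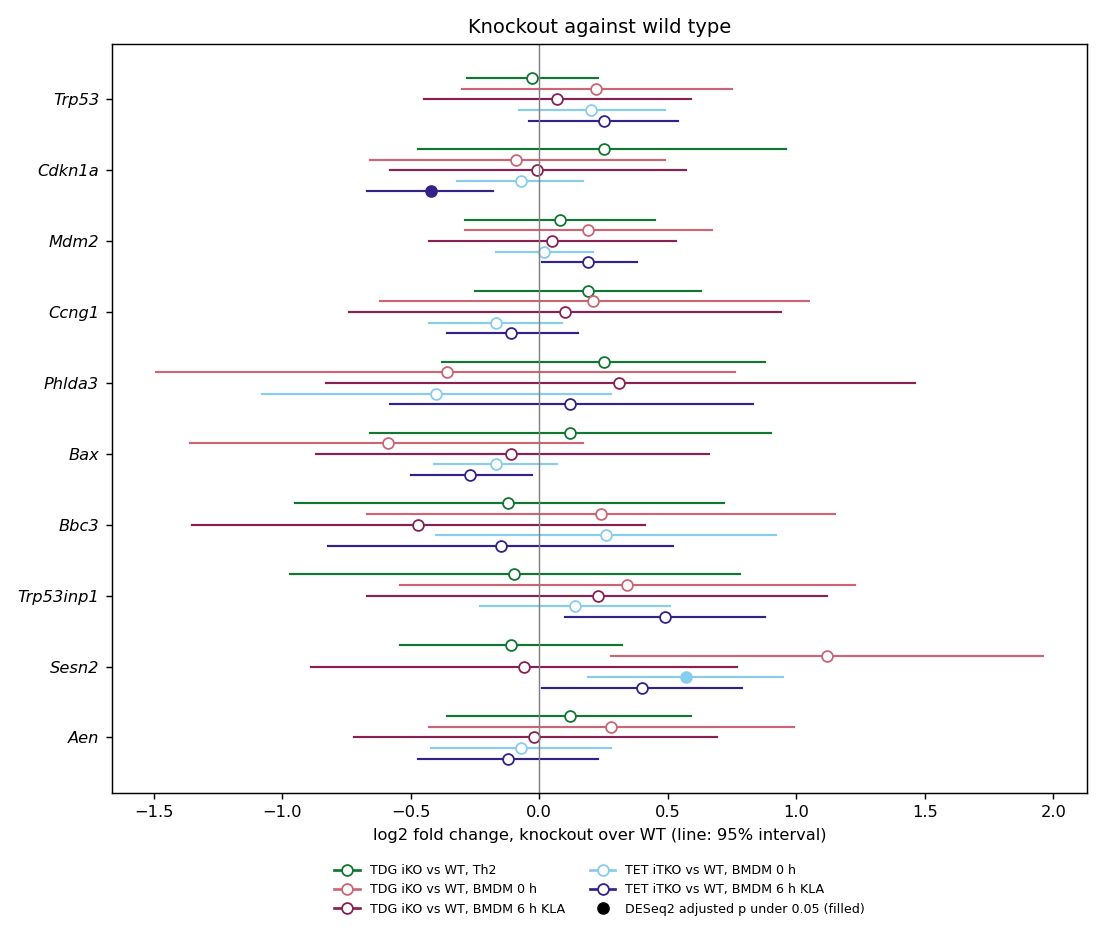
Log2 fold change, knockout minus WT (horizontal axis), of the 10 genes in the 5 knockout comparisons, with a point for each DESeq2 estimate (filled where called) and a bar for its 95% interval. Most bars cross 0, and the calls are Sesn2 in TET iTKO at 0 h (0.57) and Cdkn1a in TET iTKO at 6 h (-0.42).

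Among the 23 other p53 targets measured, those called in TET iTKO BMDM were few and all higher. At 0 h 3 of 22 tested were called, where 4.38% of all genes were called and higher. Btg2, an antiproliferative gene, had 285 and 436 normalised counts in TET iTKO against 169.1 and 152 in WT (1.17, DESeq2 adjusted p of 0.000107). Pmaip1, which encodes the BH3-only protein NOXA, had 160.1 and 318.2 against 123.7 and 108.5 (1.05, adjusted p of 0.0349), and Fas, the death receptor gene, 194 and 278.7 against 151.2 and 143.6 (0.69, adjusted p of 0.00773). All 3 were highest in TET iTKO replicate 2, without which the DESeq2 adjusted p of each exceeded the threshold (up to 0.95 for Pmaip1). The Fas and Pmaip1 calls were also lost without either WT replicate, so that each held in 1 of the 4 fits that left out a library.

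After 6 h of KLA, Pmaip1 had 185 and 333.3 normalised counts in TET iTKO against 51.56 and 62.91 in WT, a difference of 2.18 (4.54-fold, SE 0.36) with a DESeq2 adjusted p of 2.08e-07. With any one library left out it remained between 1.69 and 2.54 and past the threshold. Gadd45a, a growth arrest and DNA repair gene, had 1738 and 2129 against 1155 and 1101 (0.78, DESeq2 adjusted p of 6.05e-05), while at 0 h its values of 1335 and 1142 against 1308 and 1726 overlapped. Its call at 6 h was lost without TET iTKO replicate 2 (adjusted p of 0.0546). These 2 were the only other targets called at 6 h, of 21 tested, where 3.24% of all genes were called and higher, and 0 of 12 regulators were called at either time.

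TET iTKO BMDM also differed from WT of the Tet cohort in genes of dividing cells and of other cell types. Of 14 proliferation genes, 6 were called at 0 h and 4 at 6 h, all higher in TET iTKO, with a median of 1.58 and 1.26, and their summed normalised count on the scale of all libraries was 1665 and 3798 in TET iTKO against 1043 to 1182 in WT at 0 h. At 6 h it was 1473 and 2758 against 1022 to 1102. Over all genes, 4.38% were called and higher at 0 h and 3.24% at 6 h. The summed count of 3 B cell markers was 44.85 to 223.6 in TET iTKO and 18.48 to 25.59 in WT over both times, that of 4 granulocyte markers 895.8 to 1824 against 394.6 to 736.7, and that of the progenitor markers Kit and Cd34 51.53 to 298.4 against 15.05 to 38.29. None of these genes was at 0 in WT. The dendritic cell markers Flt3 and Siglech summed to 4.771 to 13.24 in TET iTKO, with Siglech at 0 at 0 h, and to 0 to 0.9113 in WT, where both were at 0 at 6 h. Within the Tet cohort, the highest value of each list came from TET iTKO replicate 2. In the unstimulated Tdg cohort the proliferation sum was 2720 and 6638 in WT and 2510 and 6534 in TDG iKO. Granulocyte markers there were at 570.5 and 2116 in WT and 420.6 and 6265 in TDG iKO, and progenitor markers at 46.26 and 163.2 against 81.61 and 354.9. Dendritic cell markers were at 0 and 34.96 in WT and 2.206 and 68.74 in TDG iKO. The B cell markers were at 6.168 and 24.6 against 4.412 and 28.75. For each of these lists the higher value came from replicate 1 in both genotypes. The part of these gene lists in the Sesn2, Cdkn1a, Btg2, Pmaip1, Fas and Gadd45a differences was not tested.

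**Figure D3:**
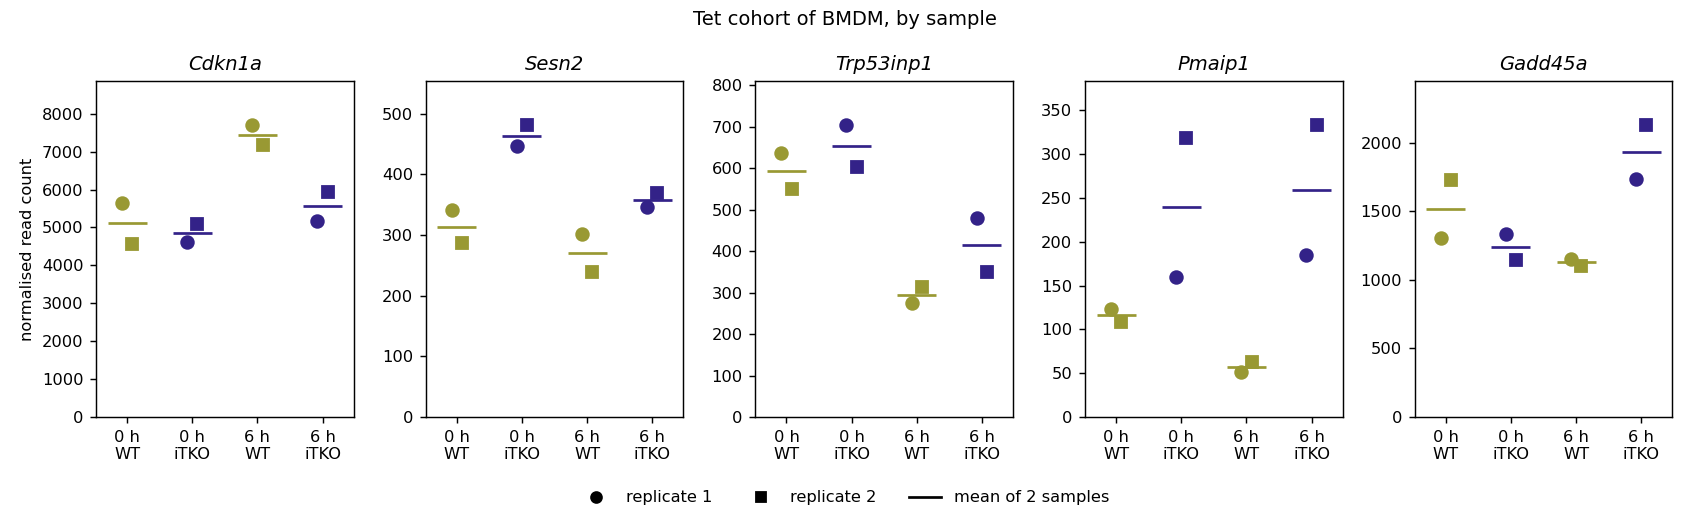
Normalised read counts (vertical axes, each from 0) in the Tet cohort of BMDM for Cdkn1a, Sesn2 and Trp53inp1 and for the other targets Pmaip1 and Gadd45a, with a panel for each gene, a point for each of the 2 replicates and a bar at the mean of each genotype at 0 h and 6 h of KLA. At 6 h both TET iTKO points lie below both WT points for Cdkn1a and above them for Pmaip1 and Gadd45a.

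The change in the TET genotype difference with KLA was called for 0 of the 10 genes, against a background of 0.426% of 12200 genes. It was -0.35 for Cdkn1a (95% interval -0.70 to 0.00, unadjusted p of 0.0502, DESeq2 adjusted p of 1), so the lower level at 6 h was not shown to differ from the difference at 0 h. Of the other targets Gadd45a was called (1.07, DESeq2 adjusted p of 0.00118), a call that was lost without TET iTKO replicate 2 at either time or WT replicate 2 at 0 h (0.86 to 1.26 over the 8 fits that left out a library, adjusted p up to 0.125). The TET effect was also set against the TDG effect directly. At 0 h the difference between the effects was called for 0 of the 10 genes (background 0.355% of 10992 genes) and at 6 h for 0 of the 10 (0.0765% of 13075 genes). For Cdkn1a at 6 h it was -0.40 (95% interval -0.96 to 0.16) and for Sesn2 at 0 h it was -0.56 (-1.41 to 0.29), so these data did not separate the knockouts.

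KLA changed few of the 10 genes, in shares not far from those of all genes given below. Cdkn1a and Trp53inp1 moved in opposite directions. In WT BMDM of the Tet cohort Cdkn1a was at 7706 and 7182 normalised counts after 6 h against 5651 and 4558 at 0 h. It rose by 0.54 (1.46-fold, SE 0.13), with a DESeq2 adjusted p of 0.000126, and kept its call under all 10 alternatives. In WT BMDM of the Tdg cohort it stood at 5691 and 5893 against 3282 and 3141, a rise of 0.85 (1.8-fold, SE 0.29, DESeq2 adjusted p of 0.0431), and in TDG iKO at 6497 and 5048 against 3558 and 2497, a rise of 0.93 (1.91-fold, adjusted p of 0.024). In both groups of the Tdg cohort edgeR did not call it (adjusted p of 0.13 and 0.124), leaving out any one of the 4 WT libraries ended the call in WT (differences of 0.82 to 0.88), and leaving out either 6 h library or 0 h replicate 2 ended it in TDG iKO (0.74, 1.11 and 0.69). In TET iTKO it was 5181 and 5934 against 4613 and 5087, a difference of 0.20 (95% interval -0.05 to 0.44, DESeq2 adjusted p of 0.294).

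Trp53inp1 fell. In WT BMDM of the Tet cohort it went from 637.4 and 549.3 normalised counts to 274.3 and 314.5, a change of -1.01 (2.01-fold lower, SE 0.20, DESeq2 adjusted p of 2.69e-06) that held under all 10 alternatives. In TET iTKO it went from 704.6 and 602.3 to 479.3 and 349.8 (-0.66, SE 0.19, DESeq2 adjusted p of 0.00389), a call that was lost without 0 h replicate 1 (-0.54) or 6 h replicate 2 (-0.45). The levels at 6 h lay below those at 0 h in all 4 groups, in the Tdg cohort at 111.6 and 121.1 against 246.8 and 133.5 in WT and at 167.6 and 105.9 against 295.4 and 192.5 in TDG iKO, where the changes of -0.72 and -0.84 had DESeq2 adjusted p of 0.388 and 0.401.

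Bax was at 2972 and 2683 normalised counts after KLA against 2217 and 2234 before it in WT of the Tet cohort, a rise of 0.35 (DESeq2 adjusted p of 0.0202), and its change in TET iTKO was 0.25 (adjusted p of 0.135). The call in WT was lost without either 0 h replicate or without 6 h replicate 1. Phlda3 was at 100.0 and 68.42 against 188.2 and 116.1 in the same WT cells, a change of -0.85 that missed the threshold (DESeq2 adjusted p of 0.0659) and passed by edgeR (adjusted p of 0.00436). Mdm2 was nearly level there, at 6295 and 6719 against 6444 and 6189 (0.04, 95% interval -0.15 to 0.23), and Trp53 likewise, at 734.2 and 752.7 against 682.8 and 664.6 (0.14, -0.15 to 0.43). Elsewhere Mdm2 changed by 0.42 in WT of the Tdg cohort, 0.29 in TDG iKO and 0.21 in TET iTKO. The changes of Trp53 were 0.41, 0.26 and 0.19 in the same order. None of these passed the test, though Mdm2 in TET iTKO did with a nested replicate block (DESeq2 adjusted p of 0.0299).

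In WT of the Tet cohort 3 of the 10 genes were thus called with KLA, 2 higher and 1 lower, where the background was 24.1% of 11917 genes, 13.1% called and higher and 11.1% called and lower. In TET iTKO it was 1 of the 10, with a background of 24.4% of 11352 genes, in WT of the Tdg cohort 1 of the 10 with a background of 8.60%, and in TDG iKO 1 of the 10 with a background of 7.08%, both of 11633 genes. None of these shares stands far from its background.

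**Figure D4:**
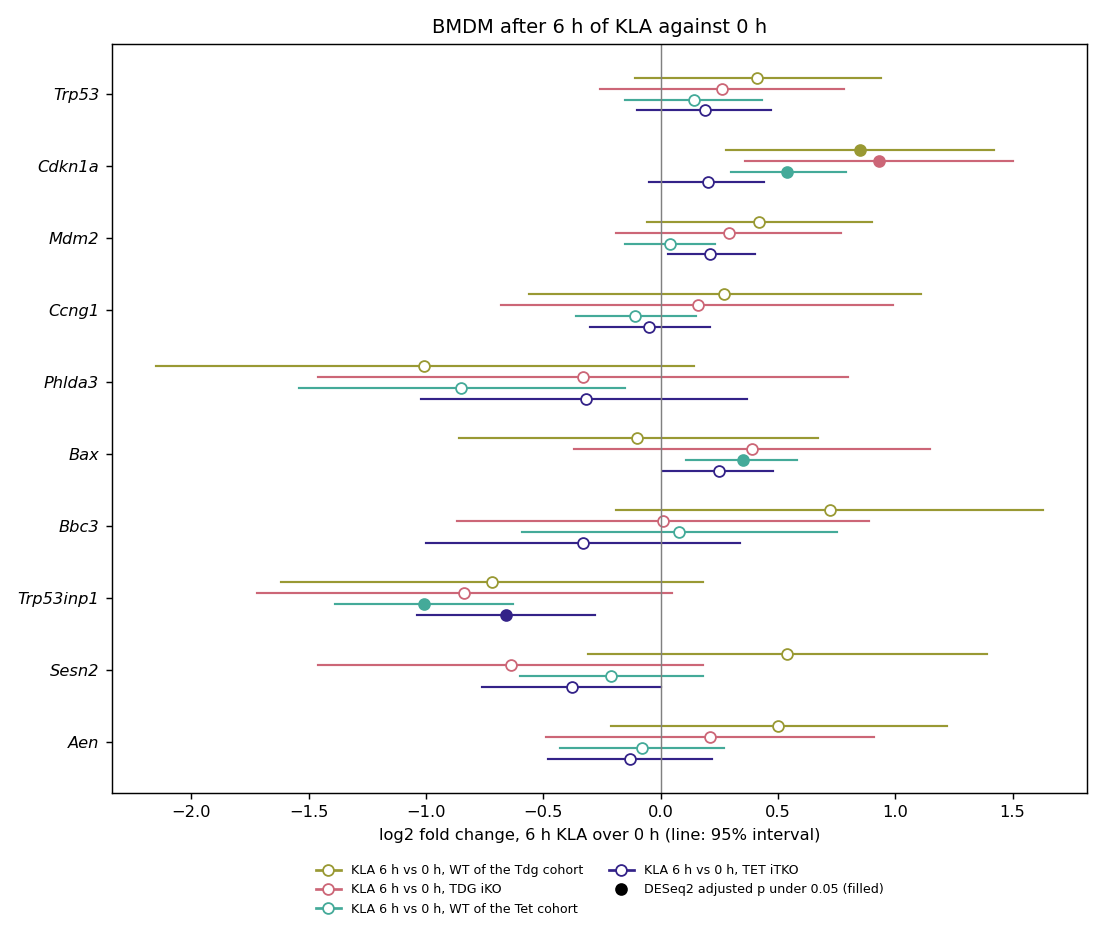
Log2 fold change, 6 h of KLA minus 0 h (horizontal axis), of the 10 genes in the 4 genotype groups of BMDM, with a point for each DESeq2 estimate (filled where called) and a bar for its 95% interval. Cdkn1a lies to the right of 0 and Trp53inp1 to the left in all 4 groups, and the bars of the Tet cohort are the shorter.

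Other p53 targets responded to KLA in both cohorts, and not in a common direction. Fas rose in all 4 groups, by 3.00 in WT and 3.34 in TDG iKO of the Tdg cohort and by 2.88 in WT and 2.12 in TET iTKO of the Tet cohort. Sesn1, the sestrin 1 gene and a relative of Sesn2, fell in all 4, with changes of -1.74, -1.66, -1.84 and -1.60 in the same order. In the Tet cohort 9 of 21 tested were called in WT, 3 higher and 6 lower, and 6 of 21 in TET iTKO, 3 higher and 3 lower. The shares of all genes called there were 24.1% in WT, 13.1% higher and 11.1% lower, and 24.4% in TET iTKO. In the Tdg cohort, Fas and Sesn1 were the 2 called of 21 in each genotype, where 8.60% of all genes were called in WT and 7.08% in TDG iKO. The same shares are the background for the regulators. Of the 12 regulators tested, Rchy1, a ubiquitin ligase that acts on p53, fell in both groups of the Tet cohort (-0.63 in WT and -0.67 in TET iTKO) and in WT of the Tdg cohort (-1.01), and Chek2, the checkpoint kinase gene, fell in both WT groups (-0.91 and -1.43). The WT comparison with KLA in the Tet cohort also called Mdm4, the partner of MDM2, which rose by 0.47.

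The cell types differed more in these genes than the genotypes did, as they did over all genes. Of all genes tested, 55.9% were called between the cell types and at most 7.50% between genotypes. WT Th2 cells (n = 3) were set against unstimulated WT BMDM of both cohorts (n = 4), with normalised counts on a common scale, so that cell type, culture and cohort of libraries cannot be told apart. Trp53 was at 1702, 1804 and 1763 in Th2 cells against 751.7, 613.6, 573.4 and 557.7 in BMDM, 2.82-fold higher (1.50, SE 0.20, DESeq2 adjusted p of 6.83e-13). Mdm2 was the other way round, at 2063, 2036 and 1851 against 4600, 3906, 5411 and 5193, 2.4-fold lower (-1.26, SE 0.19, adjusted p of 2.68e-10). Both genes separated the cell types without overlap, so Trp53 was higher where Mdm2 was lower. Mdm4, the partner of MDM2, was higher in Th2 cells, at 2042, 2054 and 3404 against 686, 244.9, 537.9 and 599.3.

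Trp53inp1 had the widest gap, with 1531, 1432 and 3677 normalised counts in Th2 cells against 334.6, 175.3, 535.2 and 460.9 in BMDM (2.63, 6.19-fold, DESeq2 adjusted p of 3.53e-10). Bbc3 was at 183.7, 136.9 and 349 against 83.66, 60.46, 66.57 and 77.56 (1.63, 3.1-fold, adjusted p of 0.000232). Phlda3 was at 377.9, 389.8 and 252.7 against 162.2, 145.1, 158 and 97.43 (1.27, 2.42-fold, adjusted p of 0.000205). In all 3 every Th2 sample lay above every BMDM sample. Sesn2 was called as well (0.64, 1.56-fold, DESeq2 adjusted p of 0.0312), but its values of 359.5, 257.1 and 317.1 against 141.6, 163.2, 286.7 and 240.4 overlapped, and neither edgeR (adjusted p of 0.098) nor TMM scaling (0.0777) called it. Leaving out any one of WT Th2 replicate 1, the summed WT Th2 replicates, WT replicate 1 of the Tdg cohort or either WT library of the Tet cohort ended the Sesn2 call as well (0.55 to 0.70), while the other 5 genes kept theirs under all 12 alternatives.

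Cdkn1a did not differ between the cell types by the test, with 3493, 4051 and 2005 normalised counts in Th2 cells against 4451, 4126, 4745 and 3825 in BMDM (-0.43, 95% interval -1.01 to 0.15). Bax was at 4277, 4228 and 2049 against 2144, 3277, 1861 and 1874 (0.64, DESeq2 adjusted p of 0.0813). Both were low in the summed replicates 3 and 4 of the Th2 cells, without which Bax was called at 0.93. Ccng1 (0.32) and Aen (0.38) were not called. In all, 6 of the 10 genes were called, 5 higher and 1 lower in Th2 cells, where the background was 55.9% of 13682 genes, 30.0% called and higher and 25.9% called and lower. TMM scaling moved the median of all genes by -0.10 in this comparison, from 0.16 to 0.07. The median of the 10 genes was 0.64. The 14 proliferation genes were all higher in Th2 cells, with a median of 4.91.

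Of the other targets, 18 of 23 were called between the cell types, 12 higher and 6 lower in Th2 cells. For these and for the regulators, the background was 55.9% of all genes called, 30.0% higher and 25.9% lower. Ddit4, a stress-induced inhibitor of mTORC1, had 2812, 2839 and 3004 normalised counts in Th2 cells and at most 19.53 in BMDM, and Perp, a membrane protein gene of the apoptosis response, had 39.36, 48.9 and 34.44 against 0 in all 4 BMDM libraries. Gdf15, a secreted stress cytokine gene, and Gadd45a were lower in Th2 cells by the widest margins, with differences of -4.59 and -4.14. All of the 10 regulators called, of 14 tested, were higher in Th2 cells, among them Chek1, the checkpoint kinase gene of dividing cells (3.68), and Mdm4 (2.28).

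Levels can be compared between genes only per length, for which normalised counts on the scale of all libraries were divided by the kilobases of exon of each gene. On this per-kilobase scale Cdkn1a or Bax stood first in every group, the other of the pair followed it, and Mdm2 or Ccng1 came after these. Bbc3 was between the 8th and the 10th place in every group. The level of Trp53 was 444 ± 13.4 per kb (SD, n = 3) in WT Th2 cells and 436 ± 19.2 (n = 3) in TDG iKO Th2 cells, and from 240 ± 22.1 (TDG iKO, 6 h) down to 144 ± 2.52 (WT of the Tet cohort, 0 h) in BMDM (n = 2 each). The order of Trp53 thus put both Th2 groups first, well apart from the BMDM groups, while the 2 Th2 groups did not differ beyond their spread, nor did the first 2 BMDM groups.

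The level of Cdkn1a on the per-kilobase scale was highest after KLA, at 3540 ± 45.9 in WT and 3520 ± 628 in TDG iKO of the Tdg cohort (SD, n = 2 each), followed by WT of the Tet cohort at 6 h with 2880 ± 142 and TET iTKO at 6 h with 2160 ± 228. The 4 unstimulated BMDM groups lay between 1860 and 1980 and did not differ beyond their spread. Th2 cells came last, with 1740 ± 528 in TDG iKO and 1460 ± 490 in WT (n = 3 each), a spread that reached into the BMDM values. The genes most like Trp53 in pattern over the 10 group means, among the 10106 genes whose mean normalised count reached 50, were Sf3b3, Gtpbp1 and Frmd8, with Pearson r of 0.994, 0.990 and 0.989, and those most like Cdkn1a were Tpst1, Dnaja2 and 5730508B09Rik, with r of 0.973, 0.954 and 0.953. Among the targets, Bbc3 was nearest to Trp53 (0.945) and Mdm2 farthest (-0.857), and Mdm2 was nearest to Cdkn1a (0.648). These correlations describe 10 group means, of which 2 are Th2 cells, so that the cell type enters each of them.

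**Figure D5:**
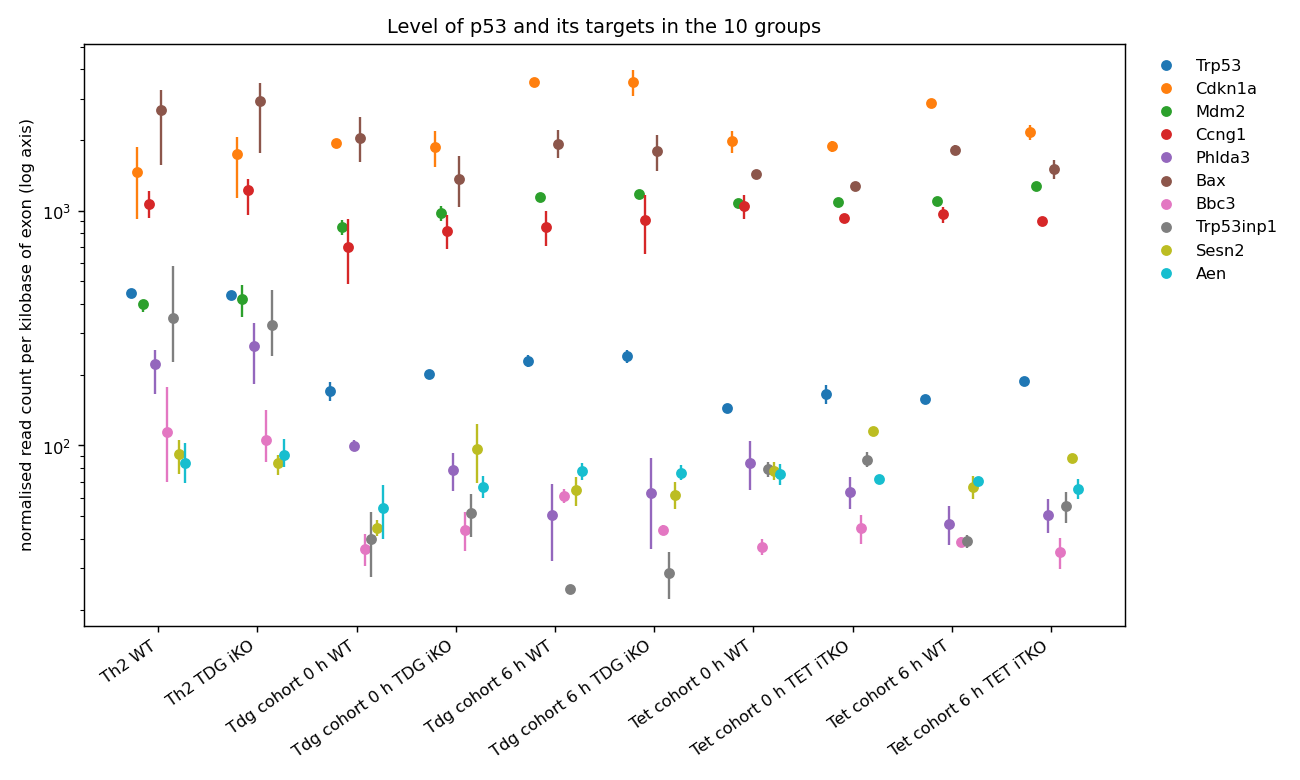
Mean normalised read count per kilobase of exon (vertical log axis, scale of all libraries) of the 10 genes in the 10 groups (horizontal axis), with a colour for each gene, points at the group means and bars from the lowest to the highest of 3 Th2 or 2 BMDM samples. Cdkn1a and Bax run highest throughout, and Trp53 is higher and Mdm2 lower in the Th2 groups than in the BMDM groups.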

How the data were processed

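The 24 deposited files hold raw read counts per gene, which the authors made with HISAT2 on mm9 and HTSeq. The submitters' processing notes also name DESeq2 1.30.0. Libraries were directional (NEBNext Ultra II). The sequencer used for each library is not given in the sources used here. The 5 HTSeq tallies, 32.8 to 51.6% of reads, were left out of library sizes and tests. Assigned counts ranged from 4982950 to 26657729 per library, and intervals cover counting error and the spread between samples together.

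Counts were tested with DESeq2 1.42.0 in R 4.3.3 (Wald test, median-of-ratios size factors, unshrunken log2 fold changes, Benjamini-Hochberg adjustment over all genes tested, threshold 0.05), on all genes with counts, less those that DESeq2's independent filtering left without an adjusted p. Log2 intervals are at 95%. Th2 libraries, the Tdg cohort and the Tet cohort were each fitted alone. The Th2 replicates 3 and 4 were summed within a genotype. Fits on all 16 BMDM libraries gave the difference between TET and TDG effects. Alternatives were edgeR 4.0.16 (quasi-likelihood, TMM), TMM factors, dropping genes without 10 counts in 2 samples, only the libraries compared, replicate blocks and leaving out each library. Th2 replicates 1 and 2 alone were added after seeing the data. The Th2 samples were paired by the replicate numbers in the labels, which do not say what a number marks. Deviations from the group means correlated within each number (r = 0.233, 0.303 and 0.725). Differently numbered samples were not compared in this way, so these values cannot show which samples belong together.

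The 10 genes, the lists of other p53 targets (23 of 24 found by symbol), regulators (15, of which Trp63 was at 0), proliferation genes and markers, and the tests were chosen with earlier results of these data known. All 10 genes are named. Of the other targets and regulators, at most the 4 called genes with the largest change per comparison are named. For likeness to Trp53 and to Cdkn1a, the 3 genes with the highest r of log2(group mean + 1) are given. Scripts were tested on simulated data.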

Additional observations from a re-analysis of the deposited data

How the results depend on the processing

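Leaving out a library from a pair assumes that the lone sample varies like the other groups. Of 150 alternative values for the log2 fold changes called among the 10 genes, 119 kept their direction and their side of the threshold, 31 kept their direction and lost the call, and 0 reversed. Of 1360 values for those not called, 10 passed the threshold and 123 changed sign. For loss of TDG in Th2 cells, 0 of the 10 genes were called, 0 with the replicate block and 1 (Cdkn1a) with replicates 3 and 4 as separate libraries and the replicate block, and the pairing changed no other call there. Over all genes the Th2 count of 0 became 15 with the block, 87 with the block and separate libraries, 46 in replicates 1 and 2 alone, and 0 to 7 when a sample was left out. For loss of TET at 0 h the count among the 10 genes was 1, and 0 with TMM factors, 0 with the replicate block and 0 without any one library. At 6 h it was 1, 2 by edgeR and 0 to 1 without a library. The count with KLA in WT of the Tdg cohort was 1, and 0 by edgeR, 0 with only the libraries compared and 0 without any one library. In TDG iKO it was 1, and 0 by edgeR, 0 with only the libraries compared and 0 to 1 without a library. In TET iTKO it was 1, 2 with a nested replicate block and 0 to 2 without a library, and in WT of the Tet cohort 3, and 2 to 3 without a library. Between the cell types 6 were called, and 5 to 7 without a library. The causes of these shifts were not tested, beyond the fewer samples that some of these fits hold. Within BMDM the replicate numbers made 2 pairs per comparison and were taken as numbers only, with correlations of deviations of 0.245 and 0.453 for TDG iKO against WT at 0 h and 6 h, 0.057 and 0.008 for TET iTKO against WT, and 0.192 to 0.551 for KLA. Over all genes the block gave 4 calls in place of 0 for TDG at 0 h, 1809 in place of 1001 and 1375 in place of 824 for KLA in WT and TDG iKO of the Tdg cohort, 90 in place of 52 for the TET interaction, and 80 in place of 39 and 26 in place of 10 for the TET effect minus the TDG effect at 0 h and 6 h. edgeR called 1637 in place of 915 and 1407 in place of 765 genes for loss of TET at 0 h and 6 h, 270 in place of 52 for the interaction, and 26 in place of 39 and 1 in place of 10 for the difference of effects. Without a library these counts were 276 to 752 at 0 h and 264 to 703 at 6 h for TET, 350 to 2218 for KLA in WT and 376 to 700 in TDG iKO of the Tdg cohort. Without the 0 h WT replicate 1 of the Tdg cohort, 1177 genes were called for TDG at 0 h, 245 for the TDG interaction and 2403 for the difference of effects at 0 h. Every one of the 10 genes had at least 20 reads in each library.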
